A study of Homo sapiens with 27 samples.

Results

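The 10 genes described here, CDKN1A, MDM2, GDF15, SESN1, BTG2, GADD45A, PHLDA3, TP53INP1, ZMAT3 and RRM2B, are textbook transcriptional targets of the tumour suppressor p53. They were chosen by symbol and all 10 were found among the 24566 gene rows of the count table. RNA was sequenced from 2 established human tumour lines, both known to carry mutant p53: A431, an epidermoid carcinoma line, and MDA-MB-231, a breast adenocarcinoma line. The A431 groups were untreated cells, a vehicle control, Compound Kushen Injection (CKI, an injectable extract of medicinal plants used beside cancer therapy), doxorubicin, and CKI with doxorubicin. The MDA-MB-231 groups were untreated cells, CKI, 5-fluorouracil (5-FU), and CKI with 5-FU. Treatment lasted 48 h, with CKI at 1.0 mg/ml (a dilution of 1 in 20) and 5-FU at 10 ug/ml. Doxorubicin's dose and the identity of the vehicle are not given here, since the labels do not settle them, and MDA-MB-231 had no vehicle group. Each of the 9 groups held 3 libraries, described as biological replicates with no further origin, so each p-value measures the spread between these libraries.

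After DNA damage, wild-type p53 is stabilised, binds its response element in DNA and raises the transcription of such genes. CDKN1A encodes p21, which blocks cyclin-dependent kinases and, through the DREAM repressor complex, lowers the transcription of many cell cycle genes, and MDM2 closes the circuit by marking p53 for destruction. Most p53 mutations found in tumours impair this DNA binding, and several of these genes can also be raised by p53 relatives such as p63 and p73 or by stress pathways that do not need p53. Doxorubicin blocks topoisomerase II and breaks DNA, and 5-FU starves cells of thymidylate and disturbs RNA. The comparisons ask whether these genotoxic drugs, CKI or their combination moved the p53 targets in cells with mutant p53. The mutations themselves cannot be read from gene counts and were not checked here.

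The canonical p53 response element consists of 2 adjoining repeats of 10 bases. To show the DNA through which these genes are thought to be controlled, its best matches within 2500 bases of each gene's start are given for 6 genes, in lower case with the 4 central bases of each repeat in capitals. Both strands were searched, no spacer was allowed, and the C and G of each centre were required. Sequences are from GRCh37, the build of the files (hg19), written 5′ to 3′ on the strand of the gene, and upstream means before the canonical transcript. Longer annotated transcripts begin within the CDKN1A element and before that of GDF15.
CDKN1A, chr6:36644226-36644245, plus strand, upstream: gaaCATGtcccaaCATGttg
BTG2, chr1:203272770-203272789, plus strand, upstream: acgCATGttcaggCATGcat
GDF15, chr19:18496118-18496137, plus strand, upstream: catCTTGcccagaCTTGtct
MDM2, chr12:69202703-69202722, plus strand, intron 1: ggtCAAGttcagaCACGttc
GADD45A, chr1:68152458-68152477, plus strand, intron 3: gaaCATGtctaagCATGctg
ZMAT3, chr3:178787976-178787995, minus strand, intron 1: aaaCAAGtccagaCATGcct
The ZMAT3 element matched the p53 consensus with 0 mismatches, that of GADD45A with 1, and the other 4 with 2. Relative to the start of the canonical transcript they lay at -2256, -1868 and -841 bases in CDKN1A, BTG2 and GDF15, and at 755, 1583 and 1611 bases in MDM2, GADD45A and ZMAT3. With RRM2B, 7 of the 10 genes held a match with at most 2 mismatches, as did 3.8% of 18229 protein-coding genes in windows of the same length (5001 bases). At most 1 mismatch was found in 3 of the 10, against 0.521% of all genes. The windows of SESN1, PHLDA3 and TP53INP1 held no match with fewer than 5 mismatches. A match is a description of letters and says nothing of binding in these cells.

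The libraries held 17757206 to 22809339 counts. Levels are given as CPM, a gene's count scaled to a common library total after TMM normalisation over all 27 libraries, and values in lists follow replicates 1, 2 and 3. A gene passed the test at an adjusted p-value under 0.05 (Benjamini-Hochberg, edgeR quasi-likelihood test over all genes), and it was called differentially expressed (DE) if its log2 fold change (log2FC) was also over 1 in size. Comparisons with untreated cells share the same 3 untreated libraries in each line. In bulk RNA, a change in the number of cells expressing a gene and a change in its RNA per cell cannot be told apart. Untreated MDA-MB-231 replicate 1 stood apart before any comparison, with 75 and 86.6 chi-square units per degree of freedom against the other untreated libraries of its line. The 3 vehicle libraries differed among themselves by 10.4 to 29.9 units, and the other 22 pairs of replicates by 1.88 to 5.71. Untreated A431 cells expressed all 6 of their keratinocyte type markers at 128 to 3575 CPM, of which KRT5 was highest. In MDA-MB-231, VIM was at 1727 CPM, all 6 keratinocyte type markers were at or below 1.79 CPM, and ESR1 was at 0 in every untreated library, but CAV1 (737 and 651 CPM in untreated A431 and MDA-MB-231) did not set the lines apart.

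The 10 genes differed widely in basal level, read per kilobase of canonical transcript. In untreated A431 cells GADD45A (140 ± 5.38 CPM per kb, SD, n = 3), GDF15 (98.0 ± 11.3), PHLDA3 (76.7 ± 4.05) and CDKN1A (39.5 ± 1.56) were the most abundant, and ZMAT3 (0.993 ± 0.0884) and TP53INP1 (0.597 ± 0.208) the least. In untreated MDA-MB-231 cells GADD45A (78.3 ± 10.3) and CDKN1A (70.5 ± 7.12) overlapped at the top and BTG2 (0.226 ± 0.0278) was lowest. Between the untreated lines, 3 of the 10 genes were DE higher and 3 DE lower in A431, where 42.9% of all 14848 genes tested were DE, 22.5% higher and 20.4% lower. BTG2 was 34-fold higher, PHLDA3 6.23-fold and GDF15 2.92-fold higher in A431, and TP53INP1 was 4.62-fold, RRM2B 2.37-fold and ZMAT3 2.18-fold lower. With GC and length offsets, ZMAT3 and RRM2B were no longer DE and CDKN1A, lower in A431 at log2FC -0.79 without them, became DE.

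**Figure D1:**
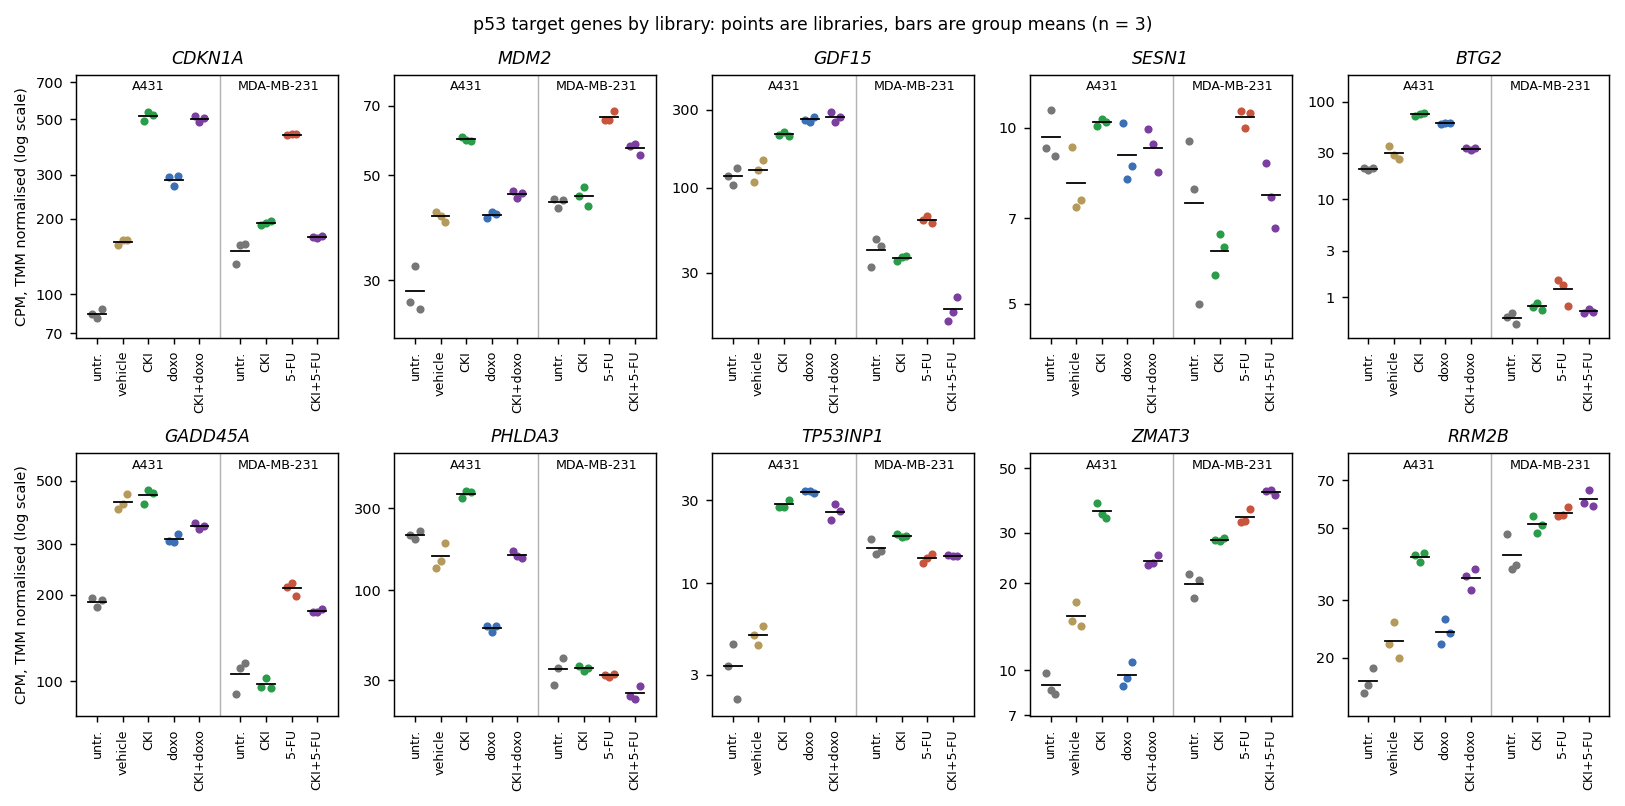
Level of each of the 10 p53 target genes in all 27 libraries, in CPM on a log scale that differs between panels. Points are libraries and bars are means of the 3 libraries of a group, with A431 on the left and MDA-MB-231 on the right of each panel. CDKN1A rises from 80.7 to 87.2 CPM in untreated A431 to 485 to 534 CPM with CKI, alone or with doxorubicin, and from 132 to 159 to 432 to 435 CPM with 5-FU in MDA-MB-231.

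Of the genes that restrain the cell cycle, CDKN1A (Entrez ID 1026, 3 exons on chromosome 6) was the gene of the 10 that passed the test most often, in 13 of 14 comparisons. In A431 it stood at 83.1, 80.7 and 87.2 CPM in untreated cells, at 157, 164 and 165 CPM with vehicle, and at 490.4, 534 and 521 CPM with CKI. Doxorubicin gave 294, 269.8 and 295 CPM, and CKI with doxorubicin 512, 485 and 504 CPM. No A431 treatment group overlapped the untreated libraries, and the CKI and combination groups overlapped each other at the top. CKI raised CDKN1A 5.84-fold (SE of log2FC 0.06, adjusted p = 1.1e-19) and doxorubicin 3.3-fold (SE 0.06, adjusted p = 1.6e-17). The vehicle raised it 1.96-fold (adjusted p = 1.1e-11), and against the vehicle the rise was 2.98-fold with CKI and 1.68-fold with doxorubicin, the latter passing the test without being DE. In MDA-MB-231 it stood at 132, 157 and 159 CPM in untreated cells, 189, 193 and 197 CPM with CKI, 432, 435 and 434 CPM with 5-FU and 169.9, 167 and 171 CPM with both. In this line 5-FU alone, not CKI, stood at the top, and no groups overlapped. The rise was 2.92-fold with 5-FU (adjusted p = 1e-08) and 1.29-fold with CKI (adjusted p = 0.0013).

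BTG2 (Entrez ID 7832, 2 exons on chromosome 1), an antiproliferative protein that recruits the machinery for mRNA deadenylation, rose with CKI and with doxorubicin in A431 but less with both. Its levels were 21.2, 19.9 and 20.9 CPM in untreated cells, 34.9, 28.8 and 26.1 CPM with vehicle, 70.55, 74.3 and 76.7 CPM with CKI, 58.7, 60.1 and 61.0 CPM with doxorubicin, and 33.6, 32.1 and 33.35 CPM with both. The combination lay above the untreated libraries and below either agent alone, within the range of the vehicle. CKI raised BTG2 3.4-fold (adjusted p = 8.5e-15) and doxorubicin 2.8-fold (adjusted p = 1.3e-13), and adding CKI to doxorubicin lowered it 1.78-fold (adjusted p = 3e-09). Against the vehicle, doxorubicin gave 1.91-fold, under the fold threshold. In MDA-MB-231 BTG2 was near the limit of the depth, with 12, 15 and 11 counts in untreated cells, 16, 19 and 15 with CKI, 33, 28 and 17 with 5-FU and 15, 17 and 15 with both. It rose 1.96-fold with 5-FU (adjusted p = 0.0058).

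GADD45A (Entrez ID 1647, 4 exons on chromosome 1), a growth arrest and DNA repair factor, was raised as much by the vehicle as by CKI. It was at 195, 181 and 191 CPM in untreated A431 cells, 397, 414 and 449 CPM with vehicle, 415, 463 and 453 CPM with CKI, 308, 304 and 326 CPM with doxorubicin, and 354, 338 and 347 CPM with both. The vehicle and CKI groups overlapped, and both doxorubicin groups lay below them. Against untreated cells the vehicle gave 2.25-fold (adjusted p = 4.5e-13) and CKI 2.22-fold (adjusted p = 3.6e-14). Against the vehicle, CKI gave a log2FC of -0.01 (SE 0.06, adjusted p = 0.86), whereas doxorubicin lowered GADD45A 1.41-fold (adjusted p = 4.6e-08), so the direction under doxorubicin depended on the control. In MDA-MB-231 it was at 89.98, 112 and 116 CPM in untreated cells, 95.8, 103 and 95.1 CPM with CKI, 214, 220.0 and 198.5 CPM with 5-FU and 174, 174 and 178 CPM with both. The CKI libraries lay within the untreated range and both groups with 5-FU above it. For 5-FU the log2FC of 1.00 (adjusted p = 1.6e-06) lay at the threshold, so the gene was DE only under some of the alternatives.

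MDM2 (Entrez ID 4193, 11 exons on chromosome 12), the ubiquitin ligase of p53, rose in 6 of the 7 comparisons with untreated cells, in each by less than the fold threshold. In A431 it was at 27.03, 32.2 and 26.2 CPM untreated, 41.9, 41.1 and 39.9 CPM with vehicle, 60.2, 59.4 and 58.9 CPM with CKI, 40.6, 41.85 and 41.4 CPM with doxorubicin, and 46.4, 44.8 and 46.0 CPM with both. The vehicle and doxorubicin groups overlapped, at a log2FC of -0.06 (adjusted p = 0.41) between them. CKI raised MDM2 1.98-fold over untreated cells (adjusted p = 1e-11), a log2FC just under 1 that passed it with DESeq2, and 1.36-fold over the vehicle (adjusted p = 2.9e-06). In MDA-MB-231 the levels were 44.55, 42.6 and 44.3 CPM untreated, 45.3, 47.25 and 43.2 CPM with CKI, 65.4, 65.5 and 68.4 CPM with 5-FU, and 57.7, 58.2 and 55.1 CPM with both. The untreated and CKI groups overlapped and both 5-FU groups lay above them, with a 1.52-fold rise under 5-FU (adjusted p = 3.1e-06). Exons of MDM2 share 133 bases with the gene of carboxypeptidase M on the other strand and 439 bases with a processed pseudogene, and whether counting used strand is not given in the sources used here, so its counts are uncertain to that extent.

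GDF15 (Entrez ID 9518, 2 exons on chromosome 19), a secreted stress cytokine of the TGF-beta superfamily, was above untreated cells with CKI and doxorubicin in A431 and below them with CKI and 5-FU in MDA-MB-231. In A431 it was at 118, 104 and 131 CPM untreated, 109, 129 and 147.5 CPM with vehicle, 211, 220.4 and 208 CPM with CKI, 261, 253.5 and 271 CPM with doxorubicin, and 289, 253 and 271 CPM with both. The vehicle overlapped the untreated libraries (log2FC 0.14, adjusted p = 0.2), the 3 drug groups lay above both, and doxorubicin alone and with CKI overlapped. Doxorubicin raised it 2.15-fold (adjusted p = 9e-11) and CKI 1.72-fold (adjusted p = 3.6e-08). In MDA-MB-231 it was at 32.3, 48.15 and 43.8 CPM untreated, 35.4, 37.6 and 38.0 CPM with CKI, 63.1, 67.3 and 60.2 CPM with 5-FU, and 15.1, 17.3 and 21.2 CPM with both. 5-FU alone lay above the untreated libraries and the combination below them. The rise with 5-FU was 1.54-fold (adjusted p = 0.0021), and the combination was 2.31-fold below untreated cells (adjusted p = 3.2e-05) and 3.56-fold below 5-FU alone (adjusted p = 1.3e-06).

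TP53INP1 (Entrez ID 94241, 4 exons on chromosome 8), a cofactor of p53 in apoptosis and a factor in autophagy, showed the largest folds of the 10 genes with CKI, doxorubicin and both in A431, and none past the test against untreated cells in MDA-MB-231. In A431 it was at 3.36, 4.51 and 2.18 CPM untreated, 5.07, 4.43 and 5.73 CPM with vehicle, 27.6, 27.5 and 30.2 CPM with CKI, 33.9, 34.05 and 32.9 CPM with doxorubicin, and 23.1, 28.5 and 25.9 CPM with both. The 3 drug groups lay far above both control groups, which overlapped at their edge. Doxorubicin raised it 9.56-fold (SE of log2FC 0.14, adjusted p = 1.3e-15) and CKI 7.95-fold (SE 0.14, adjusted p = 1.2e-14). Over the vehicle the folds were 6.31 and 5.25. In MDA-MB-231 all 12 libraries held 13.1 to 19.2 CPM, and the log2FC was 0.23 with CKI (adjusted p = 0.055), -0.20 with 5-FU (adjusted p = 0.063) and -0.14 with both (adjusted p = 0.18). Without untreated replicate 1 the CKI value passed, at 0.31 (adjusted p = 0.0029). Its exons share 225 bases with NDUFAF6 on the other strand.

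PHLDA3 (Entrez ID 23612, 2 exons on chromosome 1), a repressor of the kinase AKT that favours apoptosis, fell with doxorubicin and rose with CKI in A431. In A431 it was at 211, 199.5 and 222 CPM untreated, 135, 148.5 and 189 CPM with vehicle, 342, 379.6 and 371 CPM with CKI, 62.1, 57.7 and 62.2 CPM with doxorubicin, and 169, 159.5 and 154 CPM with both. The doxorubicin libraries lay below every other A431 library and the CKI libraries above every other. Doxorubicin lowered PHLDA3 3.61-fold (SE of log2FC 0.09, adjusted p = 1.1e-14) and CKI raised it 1.64-fold (adjusted p = 8.5e-08). Over the vehicle, which itself was 1.32-fold below untreated cells (adjusted p = 0.00066), the values were a 2.73-fold fall and a 2.17-fold rise. In MDA-MB-231 the untreated libraries, at 28.2, 35.6 and 40.7 CPM, overlapped those with CKI (36.4, 34.0 and 35.4 CPM) and 5-FU (32.4, 31.6 and 32.8 CPM). The combination, at 24.4, 23.4 and 28.0 CPM, lay below all of them (1.37-fold below untreated cells, adjusted p = 0.0061). Its exons share 512 bases with a long noncoding RNA gene on the same strand. Without untreated replicate 1, the lowest of its group, the log2FC with 5-FU passed the test at -0.24 (adjusted p = 0.0065).

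ZMAT3 (Entrez ID 64393, 6 exons on chromosome 3), an RNA-binding zinc finger protein that regulates mRNA stability and splicing, rose with CKI in both lines. In A431 it was at 9.77, 8.59 and 8.27 CPM untreated, 14.9, 17.3 and 14.2 CPM with vehicle, 38.1, 34.8 and 33.6 CPM with CKI, 8.85, 9.42 and 10.7 CPM with doxorubicin, and 23.2, 23.5 and 25.1 CPM with both. Doxorubicin alone overlapped the untreated libraries, and both CKI groups lay above every library without CKI. CKI raised ZMAT3 3.79-fold (adjusted p = 2.9e-14). The log2FC with doxorubicin was 0.07 (-0.15 to 0.29 within 2 SE, adjusted p = 0.56) against untreated cells, and a 1.68-fold fall (adjusted p = 3.7e-07) against the vehicle. In MDA-MB-231 it was at 21.5, 17.9 and 20.5 CPM untreated, 28.2, 27.95 and 28.7 CPM with CKI, 32.7, 32.9 and 36.2 CPM with 5-FU and 41.8, 42.1 and 40.3 CPM with both, 4 groups that did not overlap. The rises were 1.42-fold, 1.71-fold and 2.09-fold in that order (adjusted p = 0.00034, 4.1e-06 and 5.4e-07). The combination was DE over untreated cells, but not without untreated replicate 2 or with GC and length offsets (log2FC 0.89).

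RRM2B (Entrez ID 50484, 9 exons on chromosome 8), the ribonucleotide reductase subunit that supplies nucleotides for DNA repair, rose in every comparison of a treatment with untreated cells, by 1.24-fold to 2.29-fold. The smallest of these, with CKI in MDA-MB-231, did not pass without CKI replicate 1 or 3 or untreated replicate 2 or 3 (adjusted p from 0.052 to 0.084), and that with the vehicle was 0.08 on the log2 scale (adjusted p = 0.56) with GC and length offsets. In A431 it was at 15.6, 16.6 and 18.65 CPM untreated, 22.1, 25.7 and 19.97 CPM with vehicle, 41.4, 39.4 and 41.9 CPM with CKI, 22.1, 26.4 and 23.8 CPM with doxorubicin, and 35.7, 32.4 and 37.4 CPM with both. The vehicle and doxorubicin groups overlapped (log2FC 0.02, adjusted p = 0.86), and the 2 groups with CKI lay above them. In MDA-MB-231 it ranged from 37.5 to 47.9 CPM in untreated cells, 48.2 to 54.45 CPM with CKI, 54.6 to 58.1 CPM with 5-FU and 58.5 to 65.5 CPM with both, with no overlap between groups.

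SESN1 (Entrez ID 27244, 10 exons on chromosome 6), a stress-responsive inhibitor of mTORC1 signalling, was the least responsive of the 10. It ranged from 7.31 to 10.7 CPM over the 15 A431 libraries. The 4 treatment groups each overlapped the untreated libraries, with log2FC from -0.25 to 0.01 against them. The CKI libraries lay above those of the vehicle (log2FC 0.26, adjusted p = 0.06) and of CKI with doxorubicin. In MDA-MB-231 it ranged from 4.99 to 9.49 CPM in untreated cells and 9.98 to 10.7 CPM with 5-FU, a 1.41-fold rise (adjusted p = 0.033) that was the only 1 of 14 comparisons in which it passed the test. That pass was lost in 5 of 6 fits without 1 library (adjusted p from 0.052 to 0.092), and without untreated replicate 3, the lowest, the log2FC was 0.28 in place of 0.50. Its libraries held 102 to 235 counts, and its exons share 243 bases with a long noncoding RNA gene on the other strand.

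**Figure D2:**
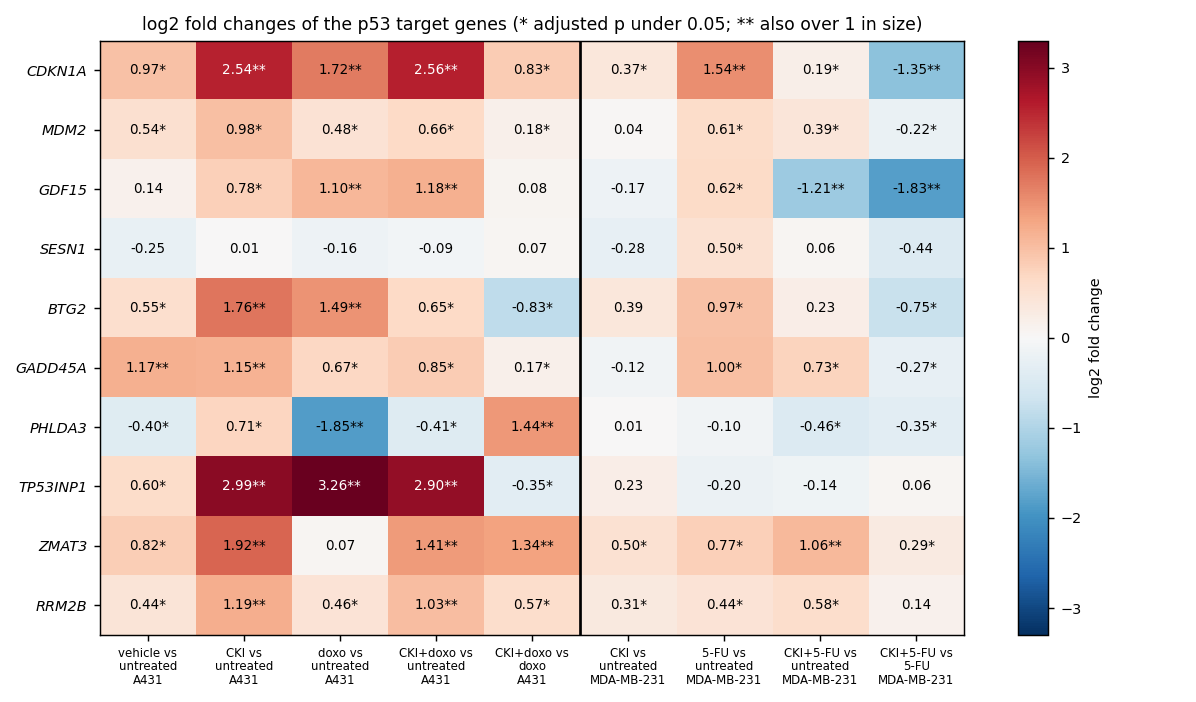
The log2FC of the 10 p53 target genes in the 9 pairwise comparisons within a line, with red for higher and blue for lower. An asterisk marks an adjusted p under 0.05 and 2 asterisks a DE call. With CKI in A431, 9 of the 10 values are red and marked, where 33.3% of all genes passed the test upward. Doxorubicin leaves PHLDA3 at -1.85 and ZMAT3 at 0.07.

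Counted as a set, 6 of the 10 genes were DE higher and 0 DE lower with CKI in A431, where 12% of the 15881 genes tested were DE higher and 10.4% lower (22.4% in all). The 6 were CDKN1A, BTG2, GADD45A, TP53INP1, ZMAT3 and RRM2B, and the median log2FC of the 10 was 1.17, against 0.00 over all genes. With GC and length offsets RRM2B lost its call (log2FC 0.92) and GDF15 gained one (1.235). With doxorubicin 4 were DE higher (CDKN1A, GDF15, BTG2 and TP53INP1) and PHLDA3 was DE lower, where 23% of all genes were DE higher and 14.3% lower. That is 5 of 10 against 37.3% of all genes in either direction. With both agents 5 of the 10 were DE higher than in untreated cells, where 21.7% of all genes were. RRM2B, one of the 5, fell under the fold threshold with those offsets, with no filter on low counts, and without untreated replicate 1 or combination replicate 3 (log2FC from 0.96 over the fits without 1 library). The vehicle alone moved 8 of the 10 past the test, 7 of them upward, where 23.2% of all genes passed upward and 19.3% downward, but only GADD45A was DE, where 2.54% of all genes were. With GC and length offsets, or without untreated A431 replicate 3, CDKN1A joined it. Of the 7 upward passes, that of TP53INP1 was lost in both cases and with only the groups compared (adjusted p from 0.072 to 0.28). Taken against the vehicle in place of untreated cells, the DE genes numbered 5 with CKI, of which PHLDA3 was not among the 6 above while GADD45A and RRM2B dropped out, 2 with doxorubicin (TP53INP1 higher and PHLDA3 lower) and 3 with both. The share of all genes DE against the vehicle was 19.5%, 38.5% and 33.3%. The 6 keratinocyte type markers summed to 6145 to 6797 CPM in untreated A431 libraries, 5213 to 5549 CPM with CKI and 7114 to 7296 CPM with doxorubicin. Of the 6, 1 was DE higher with CKI, and 3 were DE higher and 2 lower with doxorubicin. Although their sum fell with CKI, 4 passed the test upward and 2 downward, where 33.3% and 33.7% of all genes did. The 5 mesenchymal type markers summed to 809 to 905 CPM in untreated libraries, 397 to 407 CPM with CKI and 315 to 333 CPM with doxorubicin. CAV1, which did not set the lines apart, made up most of the untreated sum. Of the 5, 0 were DE higher and 2 lower with CKI (median log2FC 0.14). With doxorubicin 2 were DE higher, among them VIM at 4.74-fold, and 1 was DE lower (median 0.09). Their part in the results was not tested.

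**Figure D3:**
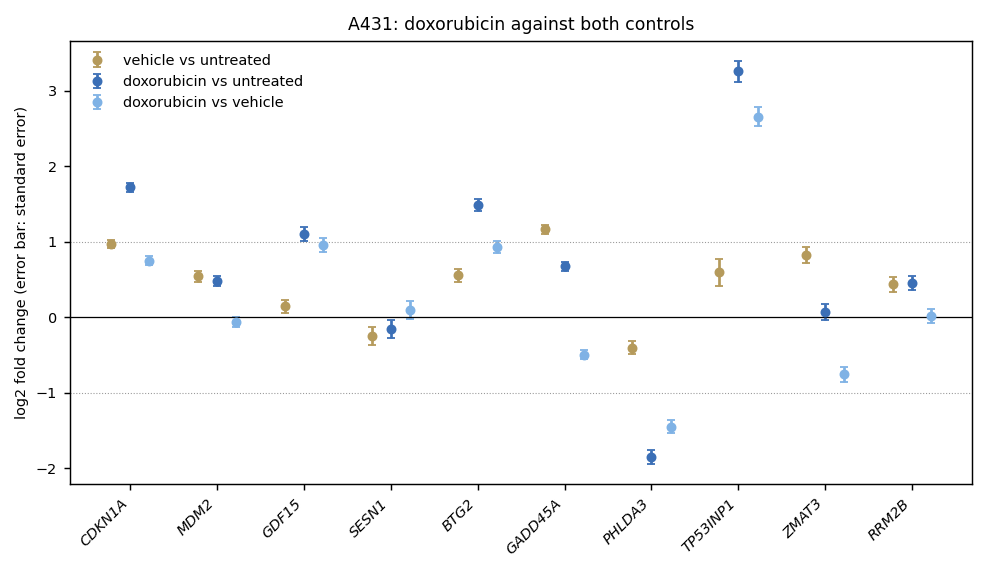
Log2FC of the 10 genes in A431 for vehicle against untreated cells, and for doxorubicin against untreated cells and against the vehicle, with standard errors as bars and dotted lines at 1 and -1. GADD45A goes from 0.67 to -0.50 and ZMAT3 from 0.07 to -0.75 when the vehicle replaces untreated cells, whereas TP53INP1 stays above 2.

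In MDA-MB-231, with CKI 0 of the 10 genes were DE, where 5.96% of 13999 genes were, and 3 (CDKN1A, ZMAT3 and RRM2B) passed the test upward, where 17.4% of all genes did and 18.8% passed downward. By edgeR, 4 passed an unadjusted p under 0.05, TP53INP1 being the other, and DESeq2 called 0 of the 10 DE. Without untreated replicate 1, 4 genes passed upward and 2 downward, the latter GDF15 (log2FC -0.32, adjusted p = 0.0022) and GADD45A (-0.22, adjusted p = 0.00095). With 5-FU, 8 of the 10 passed upward and none downward, where 28.6% of all genes passed upward, but only CDKN1A was DE, where 6.01% of all genes were DE higher. The median log2FC of the 10 was 0.61, against 0.00 over all genes. Leaving out 5-FU replicate 3 or untreated replicate 2 brought the DE genes to 3 by adding BTG2 and GADD45A. With both agents ZMAT3 was DE higher and GDF15 DE lower than in untreated cells, where 9.04% of all genes were DE. The 5 mesenchymal type markers summed to 3151 to 3549 CPM in the untreated libraries of this line, 2026 to 2058 CPM with CKI and 1941 to 2005 CPM with 5-FU, with 2 of the 5 DE lower in each case. The 6 keratinocyte type markers summed to 1.98 to 2.52 CPM in untreated libraries, 2.15 to 3.2 CPM with CKI and 3.03 to 11.65 CPM with 5-FU, with 1 of the 3 tested DE higher with CKI and 2 with 5-FU, and DSG3 was at 0 in the untreated libraries. What these shifts contributed was not tested.

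The response to CKI differed between the lines for most of the set. The interaction of cell line and CKI, the log2FC in A431 less that in MDA-MB-231, was DE above 0 in 5 of the 10 genes, where 8.87% of 14848 genes were. It was 2.78 (SE 0.23) for TP53INP1, 2.18 (SE 0.11) for CDKN1A, 1.43 (SE 0.14) for ZMAT3, 1.39 for BTG2 (SE 0.20) and 1.28 (SE 0.12) for GADD45A, with adjusted p from 1.4e-08 to 0.00015. Against the A431 vehicle, TP53INP1 (2.17), CDKN1A (1.21) and PHLDA3 (1.11) were DE, where 7.41% of all genes were DE above 0, and GADD45A was at 0.11 (adjusted p = 0.55). When replicate 1 of the untreated MDA-MB-231 libraries was left out, GDF15 joined the 5 at 1.1. The genotoxic drug differed between lines, so drug and line cannot be told apart in the contrast of doxorubicin in A431 with 5-FU in MDA-MB-231. There TP53INP1 rose more with doxorubicin (difference 3.54, SE 0.23, adjusted p = 4.7e-08) and PHLDA3 fell more (-1.67, SE 0.15, adjusted p = 1e-06), the 2 DE genes of the set where 30.3% of all genes were DE. For CDKN1A the difference was 0.26 (0.04 to 0.48 within 2 SE, adjusted p = 0.061), and against the vehicle it was -0.70 (adjusted p = 0.00013). Leaving out untreated MDA-MB-231 replicate 1, with untreated A431 as control, the CDKN1A difference passed at 0.32 (adjusted p = 0.00015). So did those of SESN1 (-0.80, adjusted p = 0.0004) and GADD45A (-0.16, adjusted p = 0.048), which did not pass with all libraries.

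**Figure D4:**
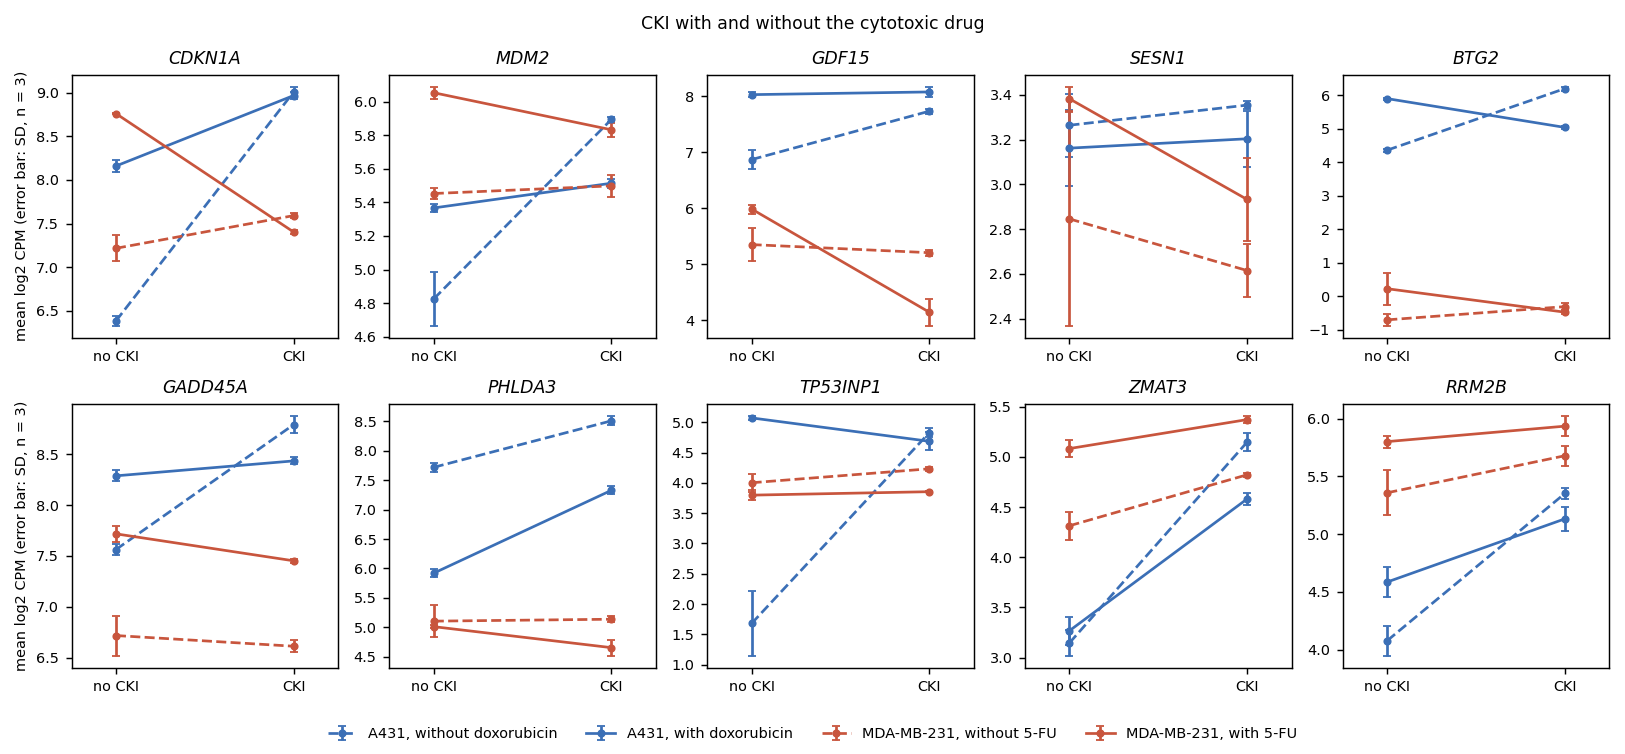
Mean log2 CPM of each of the 10 genes without and with CKI, in the absence (dashed) and presence (solid) of doxorubicin in A431 (blue) or 5-FU in MDA-MB-231 (red), with the SD of 3 libraries. Lines of different slope show unequal CKI effects: for CDKN1A the blue lines converge at the right, while the red solid line falls and the red dashed line rises.

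In A431, doxorubicin altered the response to CKI past the test in 9 of the 10 genes, where 57.4% of all genes passed in either direction. In MDA-MB-231 5-FU did so in 4, where 31.4% of all genes passed. The interaction, the log2FC of adding CKI to the drug less that of CKI alone, was DE below 0 for TP53INP1 (-3.34, SE 0.18), BTG2 (-2.60, SE 0.11) and CDKN1A (-1.71, SE 0.08) in A431, where 10.9% of all genes were DE below 0. Of the other 7, MDM2, GDF15, GADD45A, ZMAT3 and RRM2B passed below 0 and PHLDA3 above it (0.72, SE 0.12), where 26% and 31.4% of all genes did. Computed with the vehicle as control, TP53INP1 (-2.74, SE 0.17) and BTG2 (-2.04, SE 0.11) stayed DE, where 12.3% of all genes were DE below 0. With that control CDKN1A was at -0.74, GADD45A was above 0 at 0.19 (adjusted p = 0.048), and ZMAT3 (adjusted p = 0.12) and RRM2B (adjusted p = 0.22) did not pass. Against doxorubicin alone, adding CKI raised PHLDA3 2.7-fold (adjusted p = 3.1e-12) and ZMAT3 2.53-fold (adjusted p = 3.2e-11), the 2 DE genes where 14.9% of all genes were DE. It raised CDKN1A 1.78-fold and lowered BTG2 1.78-fold and TP53INP1 1.28-fold, all past the test. In all, 6 of the 10 passed upward and 2 downward, where 33.8% and 29.8% of all genes did. Of the 6, MDM2 (1.13-fold, adjusted p = 0.024) did not pass in several fits without 1 library (adjusted p from 0.051 to 0.073). With GC and length offsets MDM2 was at a log2FC of -0.03 (adjusted p = 0.69). GADD45A (1.13-fold, adjusted p = 0.01) did not pass without doxorubicin replicate 2.

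In MDA-MB-231 the interaction was DE below 0 for CDKN1A (-1.72, SE 0.10, adjusted p = 4.6e-07), GDF15 (-1.66, SE 0.20, adjusted p = 0.00011) and BTG2 (-1.13, SE 0.37, adjusted p = 0.034), where 3.81% of all genes were. The call for BTG2 rested on 11 to 33 counts a library and was lost in 9 of 12 fits that left out a library, with adjusted p up to 0.086. MDM2 also passed below 0 (-0.26, adjusted p = 0.028) without being DE. Its pass was lost with no filter on low counts, with the replicate block and in several fits that left out a library (adjusted p from 0.053 to 0.09). Leaving out untreated replicate 1 added passes below 0 for ZMAT3 (-0.27, adjusted p = 0.024) and RRM2B (-0.29, adjusted p = 0.0068). Adding CKI to 5-FU lowered 6 of the 10 genes past the test and raised ZMAT3 (1.22-fold, adjusted p = 0.0063), where 24.5% of all genes passed downward and 25.9% upward. The largest falls were GDF15 and CDKN1A (2.56-fold, adjusted p = 4.5e-08), both DE where 9.77% of all genes were, and they left CDKN1A at 1.14-fold of untreated cells (adjusted p = 0.036, not passing when any combination library was left out). The passes of BTG2, GADD45A and PHLDA3 were each lost in fits without 1 library, with adjusted p up to 0.12.

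Cell cycle genes known to fall where p21 and the DREAM complex act were compared as a list of 25. With CKI in A431 all 25 were DE lower, where 10.4% of all genes were, with a median log2FC of -2.04. MCM5, a subunit of the replicative helicase, fell 6.78-fold, AURKB, a mitotic kinase, 5.6-fold, and CDC20, an activator of the anaphase-promoting complex, 5.5-fold. With doxorubicin, which raised CDKN1A 3.3-fold, 3 of the 25 were DE lower (MCM5, BUB1B and CHEK1), a share near the 14.3% of all genes. By the test alone, 17 passed downward and 5 upward, where 39.9% and 40.7% of all genes did, with a median log2FC of -0.53. Against the vehicle 7 of the 25 were DE lower, where 14.8% of all genes were. Adding CKI to doxorubicin made 22 of the 25 DE lower than doxorubicin alone (E2F1 5.3-fold, AURKB 4.51-fold), where 8.03% of all genes were. With 5-FU in MDA-MB-231, where CDKN1A rose 2.92-fold, 3 were DE higher (CDC25A, RRM2 and CCNE2) and 0 lower, where 6.01% and 7.31% of all genes were. With CKI 0 of the 25 were DE, where 5.96% of all genes were, and 7 passed downward by edgeR, where 18.8% of all genes did. Adding CKI to 5-FU, which lowered CDKN1A, left 7 DE lower (CCNE2 3.61-fold, MYBL2 3.14-fold, RRM2 2.8-fold), where 4.51% of all genes were.

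Of 67 other genes widely reported as p53 targets, 65 were tested in A431 and 61 in MDA-MB-231. Their DE shares lay near those of all genes with doxorubicin and, for rises, with CKI. With CKI in A431, 7 were DE higher and 3 lower (median log2FC 0.10), where 12% and 10.4% of all genes were, with PGPEP1 3.92-fold and LIF 2.58-fold higher, and the repair factor DDB2 2.91-fold and FDXR, a mitochondrial reductase, 2.4-fold lower. With doxorubicin 13 were DE higher and 12 lower (median 0.08), where 23% and 14.3% of all genes were. PMAIP1, the proapoptotic BH3-only protein NOXA, rose 3.2-fold, and DDIT4, an mTORC1 inhibitor, fell 7.4-fold. With both agents 12 were DE higher and 13 lower, where 21.7% and 13.8% of all genes were. Adding CKI to doxorubicin made CYFIP2 DE higher and FUCA1 and PIDD1 DE lower, where 6.89% and 8.03% of all genes were. The vehicle gave 3 DE higher (PLK2, LIF and PMAIP1) and 1 lower (PADI4, at 0.291 CPM in untreated cells), where 1.05% and 1.5% of all genes were.

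In MDA-MB-231 2 of the 61 were DE higher with CKI (CYFIP2 2.03-fold among them) and 1 lower (TRIM22 2.75-fold), near the 3.76% and 2.21% of all genes. With 5-FU 5 were DE higher (KITLG 2.55-fold and SERTAD1 2.51-fold among them) and 4 lower, with a median of 0.16, near the 6.01% and 7.31% of all genes. With both agents 1 was DE higher and 5 lower, where 4.29% and 4.76% of all genes were, among them BBC3, the proapoptotic protein PUMA, at 3.2-fold below untreated cells, whose 3 libraries spread from 12.52 to 26.4 CPM. Adding CKI to 5-FU made 3 DE lower (TRIM22, KITLG and BBC3) and 0 higher, where 4.51% and 5.26% of all genes were.

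**Figure D5:**
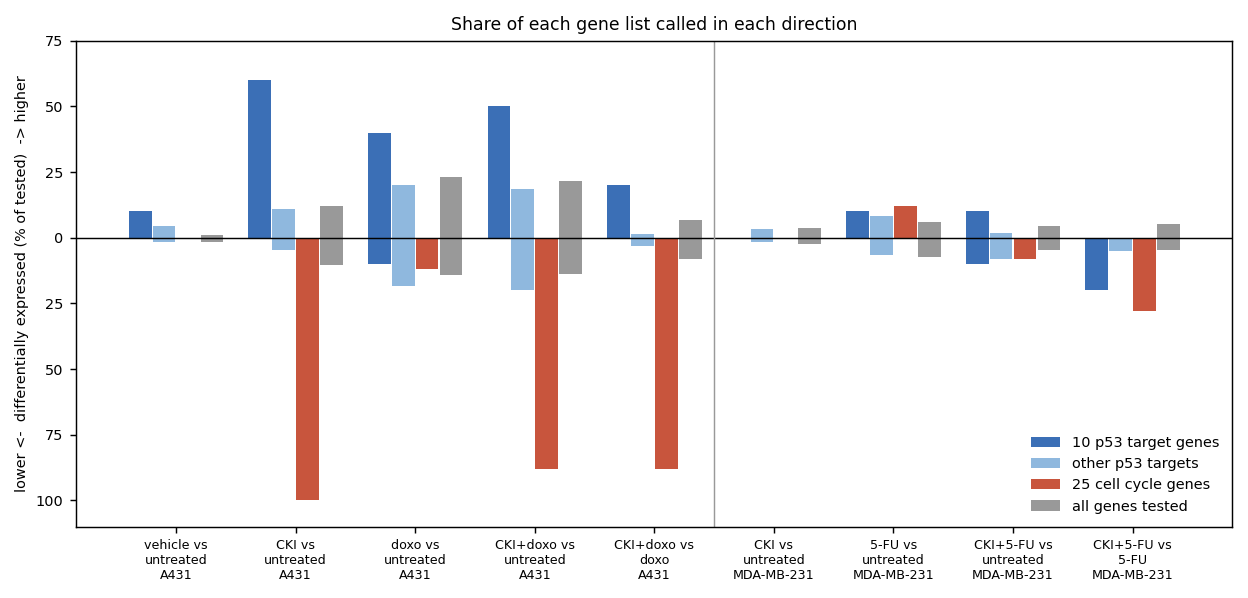
Percentage of tested genes called DE higher (above 0) or lower (below 0) in 9 comparisons, for the 10 p53 target genes, the other p53 targets (65 tested in A431, 61 in MDA-MB-231), the 25 cell cycle genes and all genes tested. With CKI in A431 the bar of the 10 genes reaches 6 of 10 upward and that of the cell cycle genes 25 of 25 downward. With doxorubicin the other p53 targets lie near the bars of all genes.

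For 9 of the 10 genes, the gene of most similar pattern was taken as that with the highest Pearson r of log2 CPM over the 27 libraries, each centred on its line's mean, among 16659 genes. These libraries share groups and treatments, so r is a description. It was 0.979 for RRM2B with PPM1A, 0.974 for TP53INP1 with GABARAPL1, 0.962 for CDKN1A with ACBD3, 0.959 for ZMAT3 with SH3RF1, 0.951 for PHLDA3 with SH3PXD2B, 0.948 for MDM2 with AKAP11, 0.913 for GADD45A with EGR2, 0.909 for BTG2 with PCSK5 and 0.804 for SESN1 with TEN1-CDK3. Within MDA-MB-231, the pair of TP53INP1 and GABARAPL1 was at 0.452. Among the 10 genes themselves r was highest between ZMAT3 and RRM2B (0.911) and between MDM2 and GADD45A (0.874), and lowest between PHLDA3 and TP53INP1 (-0.204).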

How the data were processed

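The deposited table holds raw counts of reads on each gene, as whole numbers, in 27 columns that were each matched to a library. Per the labels, reads were trimmed with Trim Galore 0.3.7 and aligned to hg19 with STAR 2.5.3a, and edgeR is named. The counting tool, annotation and use of strand are not given in the sources used here. Of 24566 rows, 1597 had no count and 24422 were matched to a symbol through their Entrez ID. Samples were grouped by title.

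Counts were tested with edgeR 4.0.16 in R 4.3.3 (TMM, filterByExpr, glmQLFit, glmQLFTest) on 15881 genes in A431 and 13999 in MDA-MB-231, with all groups of a line in the fit. Differences between lines were fitted over the 12 libraries that were untreated or given CKI (14848 genes), and untreated, doxorubicin and 5-FU libraries for the contrast of the drugs (15893 genes). All 10 genes passed the filter in each fit. Standard errors are the log2FC divided by the root of the F statistic. The scripts were tested on simulated data. Alternatives were DESeq2 1.42.0, RLE factors, other count filters, only the groups compared, adjusted p alone, a replicate block, lowess offsets for GC and length, the vehicle as control, and each library left out. Genes named from a list were at most the 3 DE genes of largest rise and fall whose groups did not overlap, with 1 gene of most similar pattern for each of the 10. A few genes picked by this rule are not reported here. Lists held other p53 targets, p53 regulators, cell cycle genes, ATF4 targets and markers of both lines. The 10 genes and these lists were chosen with earlier results of these data known. Transcript lengths and coordinates are from GENCODE 44 lifted to GRCh37.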

Additional observations from a re-analysis of the deposited data

Results flagged for a closer look

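In 13 cases the test of a difference between effects was DE, that is, CKI or a drug changed a gene by unequal amounts in 2 settings. CKI acted unequally in the lines, with a difference for CDKN1A of 2.18, BTG2 of 1.39 (1.385 unrounded), GADD45A of 1.28 (1.275), TP53INP1 of 2.78 and ZMAT3 of 1.43 on the log2 scale, each larger in A431. The effect of CKI with doxorubicin present less that without it was -1.71 for CDKN1A, -2.60 for BTG2 and -3.34 for TP53INP1 in A431. In MDA-MB-231 the effect of CKI with 5-FU present less that without it was -1.72 for CDKN1A, -1.66 for GDF15 and -1.13 for BTG2. The effect of doxorubicin in A431 less that of 5-FU in MDA-MB-231 was -1.67 for PHLDA3 and 3.54 for TP53INP1. Groups of 3 were too small for a test of single outlying libraries.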

How the results depend on the processing

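Of 237 counts of DE genes among the 10 under an alternative, 210 stayed within 1.5 times the main count. Dropping the fold threshold gave 8 genes for vehicle, 8 for doxorubicin, 9 for CKI with doxorubicin against untreated cells and 8 against doxorubicin, 3 for CKI in MDA-MB-231, 8 for 5-FU, 7 for CKI with 5-FU against untreated cells and 7 against 5-FU, 9 for the interaction of CKI and doxorubicin, 9 for that of line and CKI and 4 for doxorubicin against 5-FU. Of all genes, 42.5%, 80.6%, 79.2%, 63.6%, 36.2%, 57.1%, 49.7%, 50.4%, 57.4%, 47% and 57.5% passed in these comparisons, in that order. GC and length offsets, with or without the block, gave 2 for vehicle and 1 for CKI with 5-FU against untreated cells. At least 10 counts in every library gave 2 for 5-FU. With the vehicle as control the counts were 2 for doxorubicin, 3 for CKI with doxorubicin, 3 for the interaction of line and CKI and 4 for doxorubicin against 5-FU. The shares of all genes DE there were 38.5%, 33.3%, 14.5% and 32.2%, in that order. Over all fits without 1 library the count ranged from 1 to 2 for vehicle, 1 to 3 for 5-FU, 1 to 2 for CKI with 5-FU against untreated cells and 5 to 7 for line and CKI. The cause of these shifts was not tested, other than that dropping a threshold adds genes.

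Of 2370 values of single genes, 52 changed sign, 8 of which had passed the test. With the vehicle as control GADD45A was at -0.01 with CKI, -0.50 (-0.495) with doxorubicin, -0.32 with both and 0.19 for their interaction. MDM2 (-0.06), SESN1 (0.10; 0.095 unrounded) and ZMAT3 (-0.75) changed sign with doxorubicin, SESN1 with both (0.16), SESN1 (-0.19) and ZMAT3 (0.23; 0.235) in the interaction, and CDKN1A (-0.70) and RRM2B (-0.33) for doxorubicin against 5-FU. GC and length offsets, without and with the block, changed SESN1 with CKI in A431 (-0.263 and -0.264), ZMAT3 with doxorubicin (-0.013 and -0.013), MDM2 (-0.028 and -0.028) and SESN1 (-0.081 and -0.081) on adding CKI to doxorubicin, PHLDA3 with CKI in MDA-MB-231 (-0.046 and -0.044), SESN1 with CKI and 5-FU (-0.092 and -0.087), TP53INP1 (-0.027 and -0.027) and RRM2B (-0.019 and -0.019) on adding CKI to 5-FU, SESN1 for line and CKI (-0.010 and -0.023) and MDM2 for doxorubicin against 5-FU (0.005 and 0.008). MDM2 in that contrast was 0.017 with DESeq2, 0.019 with RLE factors and 0.103 with at least 10 counts in every library, which also gave SESN1 0.010 with doxorubicin, 0.039 with both and -0.014 for their interaction. Leaving out a library changed the sign within -0.038 to 0.09 for SESN1 and CKI in A431, -0.021 to 0.125 for ZMAT3 and doxorubicin, -0.118 to 0.141 for PHLDA3 and CKI and -0.237 to 0.023 for PHLDA3 and 5-FU in MDA-MB-231, -0.164 to 0.258 for SESN1 and CKI with 5-FU, -0.018 to 0.158 and -0.368 to 0.054 for SESN1 in the interactions with doxorubicin and 5-FU, and -0.12 to 0.032 for MDM2 and -0.045 to 0.148 for RRM2B between the drugs.

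No pairing of the samples by replicate number was seen: no comparison had all 3 same-numbered pairs correlated over 0.1. Such correlations cannot settle whether same-numbered libraries were prepared together. The replicate block, alone or with the offsets, brought the DE genes with 5-FU from 1 to 2 (GADD45A, log2FC 1.00) and otherwise left each count within 1.5 times that without it. With DESeq2 factors the median log2FC of all genes with doxorubicin was 0.11 and with TMM 0.02. Of all genes, at least 10 counts in every library left 174 DE genes of 404 for vehicle, 3197 of 5925 for doxorubicin, 3100 of 5633 for both, 1431 of 2369 on adding CKI to doxorubicin, 504 of 835 for CKI in MDA-MB-231, 833 of 1266 and 903 of 1368 for CKI with 5-FU against untreated cells and 5-FU, 2868 of 4808 between drugs and 3631 of 6367 between untreated lines, and for vehicle only the groups compared left 263 and the offsets 243 or, with the block, 233. Depth limited BTG2 in MDA-MB-231 most, at 11 to 33 counts a library.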

Other observations

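Of 10 regulators and relatives of p53, with CKI in A431 1 was DE higher (CDKN2A, the locus of p16 and ARF, 2.02-fold) and 3 lower (TP73 4.19-fold, CHEK1 2.55-fold and CHEK2 2.27-fold), where 12% and 10.4% of all genes were. With doxorubicin 2 were DE higher (CDKN2A 2.2-fold and the p53 phosphatase gene PPM1D 2.17-fold) and 4 lower, among them TP63 (4.54-fold) and TP73 (4.18-fold), where 23% and 14.3% of all genes were. In MDA-MB-231, 0 of the 9 tested by edgeR were DE with 5-FU, where 13.3% of all genes were. Of the 9, 4 passed upward and 3 downward, where 28.6% and 28.5% of all genes did. TP63 was at 227 ± 10.3 CPM (SD, n = 3) in untreated A431 cells and 0.762 ± 0.203 CPM in untreated MDA-MB-231 cells. TP73 was at 4.85 ± 0.623 CPM and 11.2 ± 4.38 CPM, and it fell 2.77-fold with CKI and 3.92-fold with CKI and 5-FU in MDA-MB-231, where the untreated libraries spread from 6.21 to 14.2 CPM.

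ATF3, a stress-induced transcription factor in a list of 12 targets of ATF4 and CHOP, was at 12.3 ± 1.68 CPM in untreated A431 cells, 432 ± 53.7 CPM with vehicle, 364 ± 48.3 CPM with CKI, 154 ± 4.01 CPM with doxorubicin and 159 ± 8.25 CPM with both. It thus rose 35.6-fold with the vehicle alone, and PPP1R15A, also known as GADD34, rose 4.74-fold, the 2 DE genes of that list in that comparison, where 2.54% of all genes were DE. With CKI 3 of the 12 were DE higher and 3 lower, and with doxorubicin 5 higher and 6 lower (DDIT3, which encodes CHOP, 6.51-fold higher, and ASNS 3.97-fold lower), where 22.4% and 37.3% of all genes were DE. In MDA-MB-231 ATF3 was at 16.7 ± 1.31 CPM untreated, 15.5 ± 0.741 CPM with CKI and 42.0 ± 0.386 CPM with 5-FU. There 1 of the 12 was DE higher with CKI (SLC7A11, 2.17-fold), and 3 were DE higher and 5 lower with 5-FU, where 5.96% and 13.3% of all genes were DE.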
